A study of Mus musculus with 36 samples.

Results

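The genes described here encode the enzymes of the urea cycle and of amino acid breakdown in the liver: 44 genes taken by symbol from a fixed list, among 32544 symbols of the deposited count table. All 44 had enough counts to be tested, among 15338 tested genes. They were arranged in 6 sub-pathways: urea cycle (7 genes), aromatic amino acids (8), glycine, serine and methyl group (14), branched-chain amino acids (7), histidine (4), and glutamine, proline and lysine (4).

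The 36 livers came from male C57BL/6N mice, sequenced whole, with no engineered allele in the labels. They were aged 8 to 10 weeks when the study began. Carbon tetrachloride (CCl4), a hepatotoxin used to model chronic liver injury and fibrosis, was dissolved in olive oil and given by intraperitoneal injection at 1 g/kg, 2 injections per week. The CCl4 mice were treated for 2, 6 or 12 months, 6 mice each. Oil mice received the vehicle alone for 2 or 12 months, 6 mice each, and no oil group of month 6 was analysed here. The remaining 6 mice are titled control at month 0, while their treatment label names olive oil. Livers were taken 6 days after the last injection. Nothing in the labels says more than that each library is a separate sample, so p-values measure the spread between these samples.

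Ammonia set free when amino acids are broken down is toxic, and hepatocytes around the portal vein convert it to urea. Carbamoyl phosphate is made in mitochondria, joined to ornithine, combined with aspartate, cleaved to arginine and split into urea and ornithine, which re-enters the cycle. The same cells hold the pathways that open the rings of tyrosine, tryptophan and histidine, shuttle methyl groups between methionine, betaine and glycine, and oxidise the carbon skeletons that remain. The complete cycle is a classic function of the differentiated hepatocyte, while some of the oxidation steps also run in many other tissues.

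Start-site sequences are shown for the 4 genes that the results turn on most: Cbs and Kmo, lower after CCl4 at each of the 3 times, Hal, whose CCl4 effect differed most between months 12 and 2, and Otc, the cycle enzyme with the largest fall. Each runs 5' to 3' from 250 bases before to 50 bases after the RefSeq start (build GRCm38.p6, chr17:31637156-31637455 on the minus strand for Cbs, chr1:175631943-175632242 on the plus strand for Kmo, chr10:93488518-93488817 plus for Hal, and chrX:10252055-10252354 plus for Otc). Capitals mark CCAAT boxes (CCAAT or ATTGG), GC boxes (GGGCGG or CCGCCC) and TATA boxes (TATAAA or TTTATA), searched on both strands.
Cbs: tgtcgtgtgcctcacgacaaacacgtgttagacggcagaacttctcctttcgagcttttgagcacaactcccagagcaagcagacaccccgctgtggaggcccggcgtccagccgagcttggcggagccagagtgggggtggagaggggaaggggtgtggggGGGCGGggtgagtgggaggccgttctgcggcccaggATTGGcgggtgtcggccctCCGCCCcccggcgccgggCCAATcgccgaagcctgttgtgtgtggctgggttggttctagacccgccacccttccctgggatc
Kmo: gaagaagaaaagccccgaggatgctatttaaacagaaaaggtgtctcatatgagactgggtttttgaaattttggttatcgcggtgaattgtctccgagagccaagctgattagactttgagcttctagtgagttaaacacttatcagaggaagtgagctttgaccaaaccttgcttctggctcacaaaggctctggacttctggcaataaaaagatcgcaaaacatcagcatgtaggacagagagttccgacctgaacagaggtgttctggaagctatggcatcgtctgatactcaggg
Hal: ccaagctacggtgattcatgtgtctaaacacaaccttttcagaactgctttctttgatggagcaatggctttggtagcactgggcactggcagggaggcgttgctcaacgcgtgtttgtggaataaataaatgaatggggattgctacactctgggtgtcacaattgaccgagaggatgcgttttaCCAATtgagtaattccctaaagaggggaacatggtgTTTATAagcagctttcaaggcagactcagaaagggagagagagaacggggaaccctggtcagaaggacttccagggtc
Otc: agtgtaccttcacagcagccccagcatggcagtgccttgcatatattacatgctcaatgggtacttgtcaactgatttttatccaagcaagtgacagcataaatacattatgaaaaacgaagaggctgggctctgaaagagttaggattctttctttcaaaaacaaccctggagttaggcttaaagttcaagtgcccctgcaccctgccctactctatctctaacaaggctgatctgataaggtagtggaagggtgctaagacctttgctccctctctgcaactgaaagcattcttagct
The Cbs window held 2 CCAAT boxes, 2 GC boxes and 22 CG dinucleotides at 66.7% G and C. Hal carried 1 TATA box and 1 CCAAT box at 47.7% G and C. Neither Kmo nor Otc had any of the 3 motifs in this window, both at 44.3% G and C. RefSeq windows were found for 35 of the 44 genes. Among those 35, CCAAT occurred in 54.3%, against 41.1% of all 27025 genes with a window. GGGCGG occurred in 51.4%, against 38.2% of all, and TATAAA in 11.4%, against 15.7% of all. The motif CAAAGTNCA, part of the HNF4A recognition sequence, was present in 1 of the 35, Ftcd, a share of 2.86% against 1.64% of all.

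Library totals ran from 19403247 to 28917545 counts. Scaling factors of the TMM method, which sets the bulk of genes equal between libraries, ran from 0.757 to 1.33 and were 1.24 to 1.33 in month 12 CCl4 livers and 0.781 to 1.01 in month 12 oil livers. Several libraries stood apart. Month 12 CCl4 mice 2 and 6 had the lowest levels of these genes, and month 6 CCl4 mouse 2 had 44 of the 44 below the month 12 oil mean. Month 0 control mice 4 and 5 were low for many members. Erythroid markers summed to 7311 CPM in month 2 CCl4 mouse 1 and intestinal markers to 435 CPM in month 2 CCl4 mouse 6, each the highest of its group. Results were refitted without month 2 CCl4 mice 1 and 6 and 2 further libraries, mouse 2 of month 2 oil and mouse 2 of month 12 oil. These had been set aside in earlier work on these data for transcripts of other tissues. A separate refit left out month 12 CCl4 mice 2 and 6. Month 6 CCl4 mouse 2 and month 0 mice 4 and 5 were left out only 1 at a time. Pancreatic acinar markers were high in libraries that were kept, up to 40409 CPM in month 2 CCl4 mouse 5 and 38499 CPM in month 12 oil mouse 4. Transcripts that define hepatocytes were abundant in all 36 libraries: 10 plasma protein genes, Alb among them, took between 8.53% and 18.7% of all counts.

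At month 12, 39 of the 44 genes fell and 2 rose in CCl4 livers relative to oil livers (edgeR quasi-likelihood test, Benjamini-Hochberg adjusted over all tested genes). Over all tested genes 49.1% were called, 23.2% lower and 25.9% higher, against 88.6% lower and 4.55% higher among the 44. The median log2 fold change of the 44 was -0.80, beside 0.01 over all tested genes, and 12 of the 44 had a log2 fold change below -1. In 28 of them every CCl4 liver lay under every oil liver, a pattern shown by 10.2% of all tested genes. None lay wholly above, as 12.1% of all tested genes did. The 3 without a call were Asl, Gldc and Hibch. Because these are bulk samples, fewer hepatocytes and less RNA per hepatocyte cannot be told apart. The scaling bears on this count: with library totals alone, which move the median of all tested genes to 0.56, 19 of the 44 were called lower and 4 higher, at a median of -0.26.

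At months 2 and 6 few of these genes differed. At month 2, 2 were called lower and none higher in CCl4 livers relative to oil livers, with a median log2 fold change of -0.06. Among all tested genes 10.4% were called, 3.38% lower and 7% higher, against 4.55% lower among the 44. Every CCl4 liver lay above every oil liver for Sds, Uroc1 and Gls2 (4.64% of all tested genes did so) and below for Dmgdh (2.4%), without a call for any of these 4, which were named after their values were seen. By edgeR 7 of the 44 had an unadjusted p under 0.05 in either direction, and DESeq2 also called none higher. At month 6, for which the 2 oil groups were averaged as the comparator, 2 were again called lower and none higher at a median of -0.13. The background there was 11.4% called, 3.68% lower and 7.71% higher. Kmo alone had every CCl4 liver below every oil liver, as had 0.945% of all tested genes, and none lay above, as had 0.867%. Once more 7 of the 44 had an unadjusted p under 0.05, and DESeq2 called none higher. Without month 6 CCl4 mouse 2 the counts were 2 lower and 1 higher. Both lower genes were Cbs and Kmo at each time. The scaling bears on these counts too: with library totals alone none was lower and 5 were higher at month 2, and 1 was lower and 10 were higher at month 6.

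**Figure D1:**
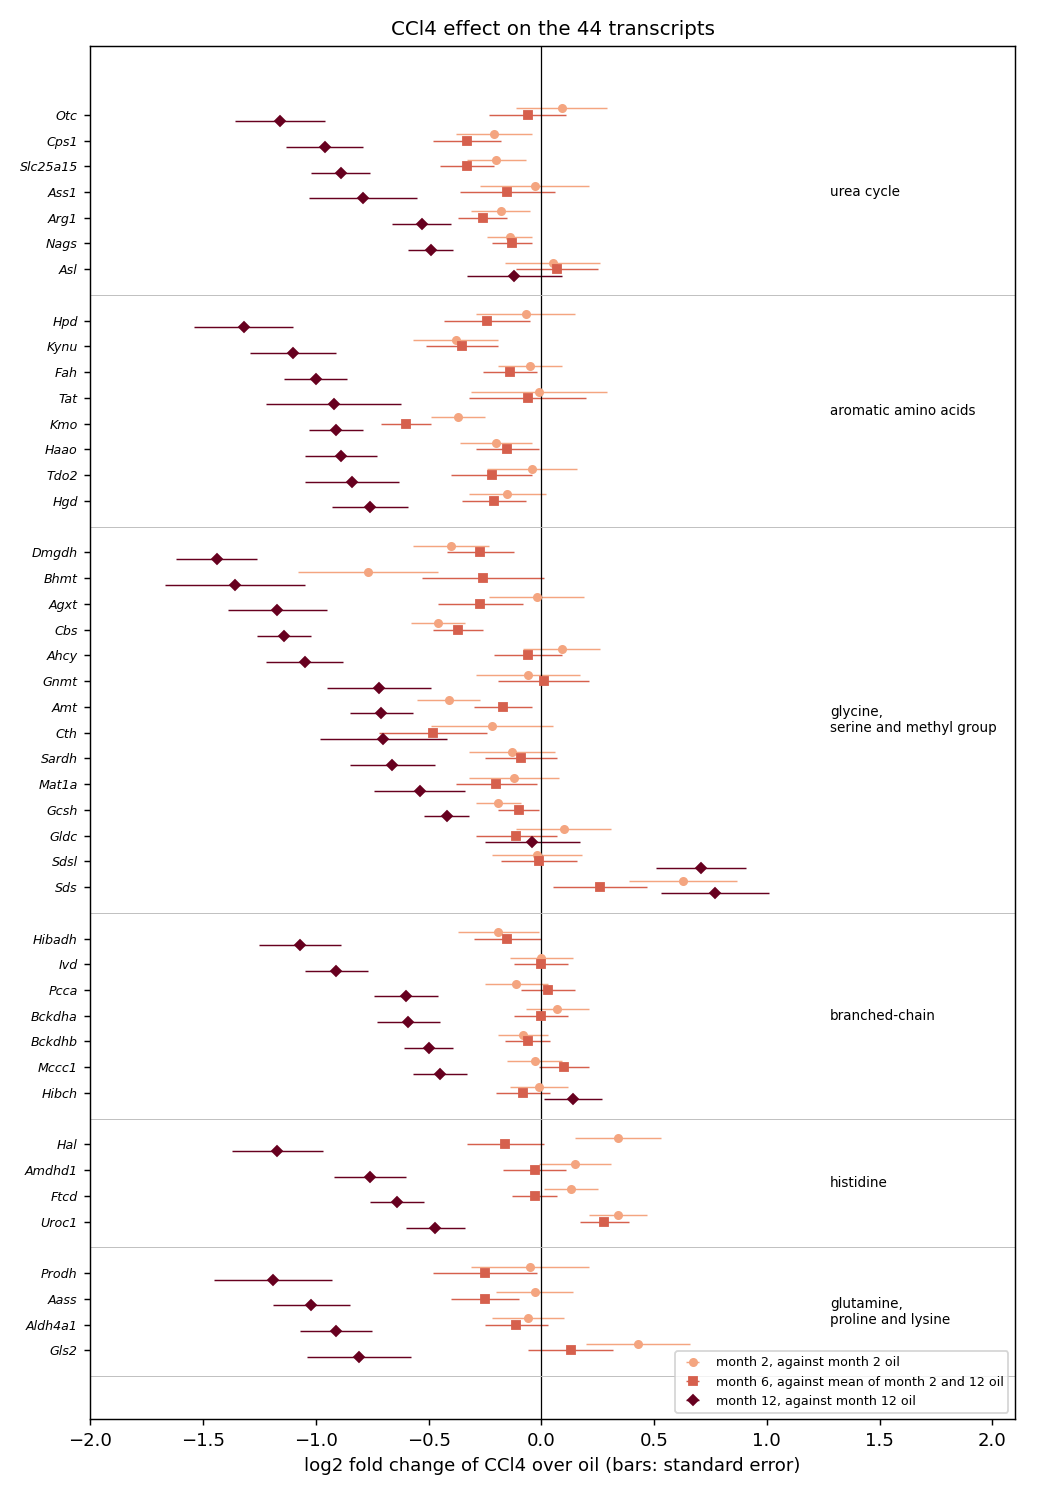
Log2 fold change of CCl4 over oil for each of the 44 genes, ordered by sub-pathway, with bars of 1 standard error; circles are month 2, squares month 6 and diamonds month 12. The diamonds of 41 genes lie left of 0, while most circles and squares lie near 0 and those of Cbs and Kmo lie left of it.

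The CCl4 effect itself differed between month 12 and month 2 for 24 of the 44, each in the lower direction with TMM scaling (interaction test in the same fit). Among all tested genes 21.3% were called in that test and 10.1% were lower. None of the 44 was called higher by edgeR and 1 by DESeq2, with 33 of the 44 at an unadjusted p under 0.05 in either direction. Without month 12 CCl4 mice 2 and 6, 17 were called lower. With library totals alone 13 were called lower and 2 higher. Between CCl4 livers of month 12 and month 6, 36 genes were lower and 1, Sdsl, was higher, against a background of 39.2% called, 18.6% lower and 20.6% higher. Sdsl lost its call without month 12 CCl4 mouse 6, at 0.42 and an edgeR adjusted p of 0.0789. Otc, Fah and Cbs lay wholly below (5.93% of all tested genes) and none wholly above (8.59%). That comparison shares the month 12 CCl4 mice with the oil comparison, and longer exposure and greater age cannot be told apart in it. Without month 12 CCl4 mice 2 and 6, 23 genes were lower in it.

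Within the urea cycle, 6 of 7 genes fell at month 12 and none did at month 2 or 6. Cps1, which makes carbamoyl phosphate from ammonia and commits nitrogen to the cycle (mm10, chromosome 1, 67123026 to 67231259), lay between 2416 and 4020 CPM (counts as a rate per library total, after TMM scaling) with a median of 3270 in month 12 CCl4 livers, and between 5061 and 7322 with a median of 6402 in month 12 oil livers. The groups did not overlap, and the log2 fold change was -0.96 (SE 0.17, edgeR adjusted p 1.58e-05). Otc, which joins carbamoyl phosphate to ornithine (chromosome X, 10252305 to 10321024), lay between 103 and 364 CPM (median 279) in month 12 CCl4 livers and between 500 and 621 (median 582) in oil livers. CCl4 mice 2 and 6 were the 2 lowest for Otc, yet the other 4 were also below every oil mouse. Its log2 fold change was -1.16 (SE 0.20, edgeR adjusted p 1.38e-05). Slc25a15, the mitochondrial ornithine carrier, was between 115 and 240 CPM (median 178) in month 12 CCl4 livers and between 286 and 354 (median 328) in oil livers, again without overlap (log2 fold change -0.89, SE 0.13).

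The cytosolic part of the cycle moved less evenly. Ass1, which condenses citrulline with aspartate, ranged from 525 to 2169 CPM (median 1409) in month 12 CCl4 livers and from 1789 to 2923 (median 2070) in oil livers, and the groups overlapped. Its log2 fold change was -0.79 (SE 0.24, edgeR adjusted p 0.00717), and without CCl4 mice 2 and 6 it was -0.43 with an adjusted p of 0.0999. Arg1, the arginase that releases urea, ranged from 578 to 1099 CPM (median 812) in CCl4 livers and from 1018 to 1468 (median 1202) in oil livers, with a log2 fold change of -0.53 (SE 0.13, edgeR adjusted p 0.000875). Nags, which makes the obligate activator of Cps1, had a log2 fold change of -0.49. Asl, which cleaves argininosuccinate, stood apart: 156 to 355 CPM (median 269) in CCl4 livers and 266 to 330 (median 300) in oil livers. Its log2 fold change of -0.12 had a 95% interval from -0.55 to 0.30 and no call (edgeR adjusted p 0.653). Under library totals alone the values were 0.02 for Arg1, 0.05 for Nags and 0.42 for Asl.

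At the earlier times none of the 5 core enzymes was called. In month 2 CCl4 livers the medians were 6096 CPM for Cps1, 597 for Otc, 2587 for Ass1, 454 for Asl and 1172 for Arg1. In month 2 oil livers they were 6922 CPM for Cps1, 566 for Otc, 2647 for Ass1, 388 for Asl and 1322 for Arg1. The month 2 groups overlapped for each of the 5. In month 6 CCl4 livers the medians were 5746 CPM for Cps1, 567 for Otc, 2369 for Ass1, 414 for Asl and 1036 for Arg1. The interaction of CCl4 and month was called for Otc (-1.25), Cps1 (-0.75) and Slc25a15 (-0.69), and not for Ass1, Asl, Arg1 or Nags. Cps1 lost this call without month 12 CCl4 mice 2 and 6 (-0.61, edgeR adjusted p 0.0843), with library totals alone (-0.41) and with totals without Mup genes (-0.58). Slc25a15 lost it with library totals alone (-0.35) and without the 4 libraries (-0.58, edgeR adjusted p 0.0529). Per kilobase of exon, the month 12 CCl4 medians were 831 CPM for Ass1, 589 for Cps1, 550 for Arg1 and 65.8 for Otc. Month 12 oil medians per kilobase were 1221 for Ass1, 1152 for Cps1, 814 for Arg1 and 137 for Otc. The ranges of Ass1 and Cps1 overlapped in both groups on this scale. Both genes are measured in the same mice, so this overlap does not settle their order, which was not tested.

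**Figure D2:**
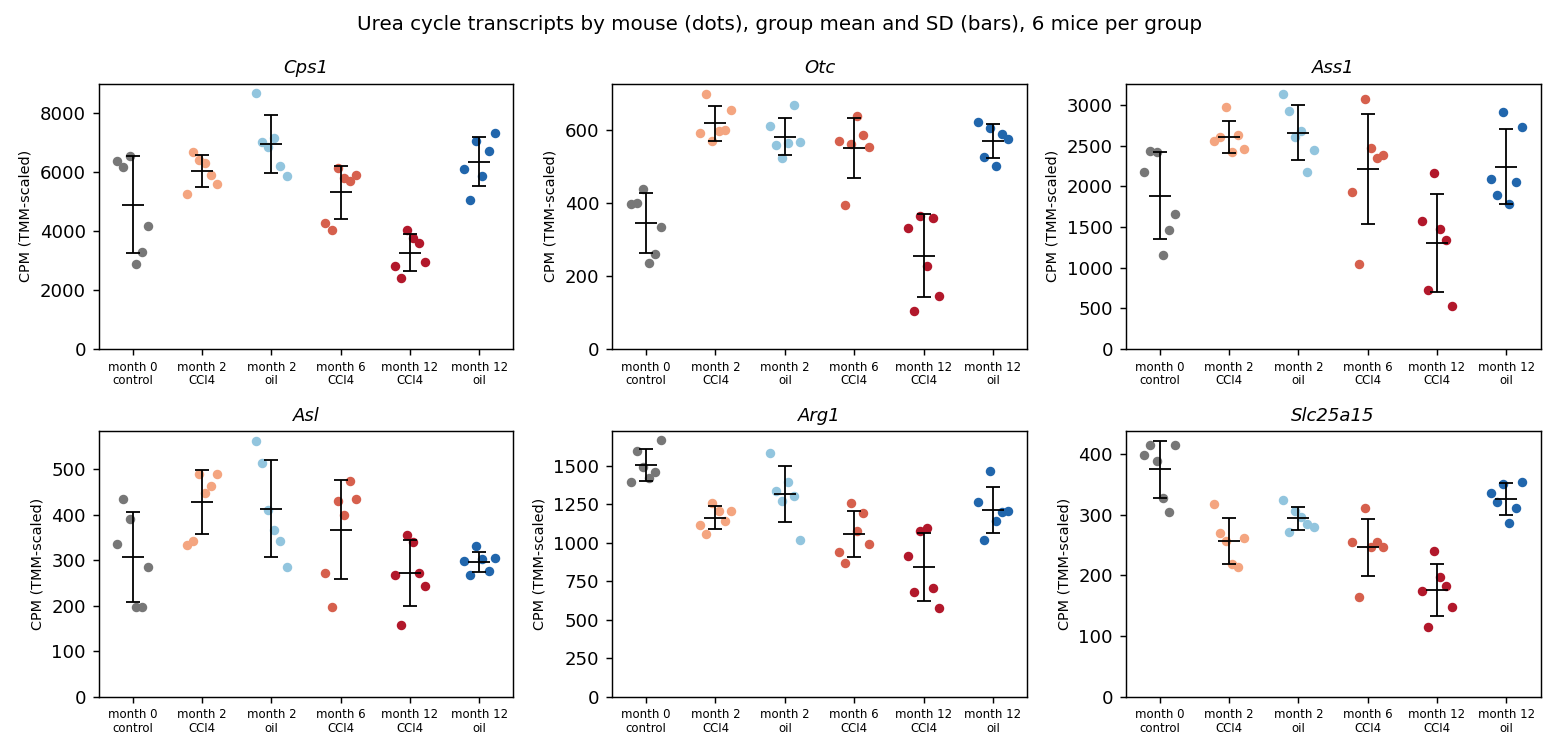
CPM of 6 urea cycle genes in each mouse (dots) with group mean and SD (bars), 6 mice a group. Cps1, Otc and Slc25a15 of month 12 CCl4 livers lie below every month 12 oil liver, Ass1 and Arg1 overlap, and Asl covers the oil range.

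All 8 genes of aromatic amino acid breakdown fell at month 12, at a median log2 fold change of -0.92. On the tyrosine side, Hpd, which makes homogentisate, lay between 252 and 804 CPM (median 523) in month 12 CCl4 livers and between 1181 and 1399 (median 1271) in oil livers. Its log2 fold change was -1.32 (SE 0.22, edgeR adjusted p 8.51e-06), and the groups did not overlap. Fah, the last enzyme of that route, lay between 112 and 248 CPM (median 236) in CCl4 livers and between 356 and 502 (median 417) in oil livers, a fitted level of 0.501 times that of oil without overlap (SE 0.14 on the log2 scale, edgeR adjusted p 5.27e-07). CCl4 mouse 6 was far below the other CCl4 mice for Fah. The other enzymes of the route, Tat, the tyrosine aminotransferase at the entry, and Hgd, which opens the ring of homogentisate, had log2 fold changes of -0.92 for Tat and -0.76 for Hgd. For Tat the groups overlapped, and without CCl4 mice 2 and 6 the value was -0.69 at an edgeR adjusted p of 0.0917.

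On the tryptophan side, the 4 members of the kynurenine route fell. Kynu, which cleaves kynurenine and its hydroxylated form, lay between 60.6 and 137 CPM (median 106) in month 12 CCl4 livers and between 171 and 247 (median 231) in oil livers, a log2 fold change of -1.10 without overlap. Haao, which opens the ring of 3-hydroxyanthranilate, was at -0.89 and Tdo2, the hepatic enzyme that starts tryptophan breakdown, at -0.84. Kmo, which hydroxylates kynurenine (chromosome 1, 175620381 to 175662116; the window printed above lies inside this annotated gene), was lower at every time. It lay between 232 and 345 CPM (median 272) in month 2 CCl4 livers and between 326 and 412 (median 358) in month 2 oil livers. In month 6 CCl4 livers it was 217 to 271 CPM (median 259), below each of the 12 oil livers. In month 12 CCl4 livers it was 132 to 244 CPM (median 229), against 314 to 455 (median 418) in month 12 oil livers.

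Kmo had log2 fold changes of -0.37 (SE 0.12, edgeR adjusted p 0.0453) at month 2, -0.60 (SE 0.11, adjusted p 0.000241) at month 6 and -0.91 (SE 0.12, adjusted p 2.15e-07) at month 12. The month 2 call was lost when any 1 of 8 libraries was left out, with values from -0.45 to -0.32 over all 12 single removals. Those 8 were month 2 CCl4 mice 3, 4, 5 and 6 and month 2 oil mice 1, 2, 3 and 5. Under library totals alone it was -0.17 at month 2. Its CCl4 effect at month 12 differed from that at month 2 by -0.54. That call was lost without month 12 CCl4 mice 2 and 6 (-0.39, edgeR adjusted p 0.0675). It was also lost with library totals alone (-0.18) and with totals without Mup genes (-0.36). The interaction was also called for Hpd (-1.24), Fah (-0.94), Tdo2 (-0.81), Kynu (-0.72) and Haao (-0.69), those of Tdo2 and Kynu each lost in 17 of 24 single removals. Haao lost its call in the same refits as Kmo, at -0.50, -0.34 and -0.51 in that order.

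In the glycine, serine and methyl group list 11 of 14 genes fell and 2 rose at month 12. Dmgdh, the mitochondrial dehydrogenase that turns dimethylglycine into sarcosine, lay between 74.7 and 204 CPM (median 156) in month 12 CCl4 livers and between 338 and 484 (median 367) in oil livers. Its log2 fold change of -1.44 (SE 0.18, edgeR adjusted p 4.11e-08) had the largest size among the 44. Bhmt, which passes a methyl group from betaine to homocysteine and so supplies dimethylglycine, lay between 1015 and 2942 CPM (median 2209) in CCl4 livers and between 4065 and 7117 (median 4936) in oil livers (-1.36, SE 0.31). Agxt, which converts glyoxylate to glycine, lay between 28.3 and 149 CPM (median 115) in CCl4 livers and between 200 and 291 (median 248) in oil livers (-1.17, SE 0.22). None of these 3 overlapped between the groups. Bhmt and Dmgdh lie on chromosome 13, 36471 bases apart with 1 coding gene between them.

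Bhmt also varied among the month 2 CCl4 mice. Mice 1 and 2 had 4333 and 4240 CPM, mouse 3 had 2580, and mice 4, 5 and 6 had 929, 1400 and 1334, while month 2 oil livers ranged from 3394 to 5488 CPM. Across the group its log2 fold change was -0.77 (SE 0.31) with no call (edgeR adjusted p 0.103). Cbs, which condenses homocysteine with serine on the way to cysteine (chromosome 17, 31608894 to 31637238), was highest in the same 2 mice: 357 and 288 CPM in mice 1 and 2, and 195 to 247 CPM in mice 3 to 6. Month 2 oil livers had 304 to 384 CPM (median 353). Cbs was 234 to 317 CPM (median 284) in month 6 CCl4 livers. In month 12 CCl4 livers it was 118 to 220 CPM (median 168), against 325 to 429 (median 392) in oil livers, with no overlap.

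Cbs had log2 fold changes of -0.46 (SE 0.12, edgeR adjusted p 0.013) at month 2, -0.37 (SE 0.11, adjusted p 0.0208) at month 6 and -1.14 (SE 0.12, adjusted p 3.67e-09) at month 12. The month 2 call held in every single removal, with values from -0.59 to -0.39. At month 6 it was lost without CCl4 mouse 6, at an adjusted p of 0.0504. Under library totals alone the values were -0.27 at month 2 and -0.05 at month 6, neither called. Its CCl4 effect differed between month 12 and month 2 by -0.69, a call lost with library totals alone (-0.34, edgeR adjusted p 0.112). The next enzyme, Cth, which releases cysteine from cystathionine, was at -0.70 at month 12 with an edgeR adjusted p of 0.0329. That call was lost in 5 of 12 single removals (CCl4 mice 1, 2 and 6, oil mice 1 and 6), and without CCl4 mice 2 and 6 the value was -0.36.

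Of the remaining methyl group enzymes, Ahcy, which hydrolyses S-adenosylhomocysteine, was at -1.05, Gnmt, the methyltransferase that uses glycine as acceptor, at -0.72, Sardh, the sarcosine dehydrogenase, at -0.66, and Mat1a, the S-adenosylmethionine synthetase of adult liver, at -0.54. Mat1a lost its call without CCl4 mouse 2, without CCl4 mouse 6 or without oil mouse 1, and under library totals alone it was at 0.00. The glycine cleavage system was split: Amt and Gcsh, its T and H proteins, had log2 fold changes of -0.71 and -0.42, while Gldc, its decarboxylase, was at -0.04 with a 95% interval from -0.47 to 0.39. With library totals alone Gcsh was at 0.12 and Gldc at 0.50. For Ahcy, 67.3% of its 60-base windows also occur in other genes, with Gm4737 sharing the most. For Bhmt 24.1% do, with Gm5096 sharing the most, so counts of these genes may include reads of near-identical copies. Of the windows of Ass1 36.2% occur in other genes, with Gm5424 sharing the most. The share for Bckdha was 46.9%, with B3gnt8 sharing the most.

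The 2 genes called higher than in month 12 oil livers, Sds and Sdsl, both encode serine dehydratase activity or its close relative. They lie 3715 bases apart on chromosome 5 with no coding gene between them, on opposite strands. Sds lay between 79.5 and 235 CPM (median 175) in month 12 CCl4 livers and between 64.1 and 133 (median 99.3) in oil livers, a log2 fold change of 0.77 (SE 0.24, edgeR adjusted p 0.00854). CCl4 mouse 2 was within the oil range and the other 5 were above it. The month 12 oil median of Sds was the lowest of all groups. Month 0 livers had 160.5 to 186.9 CPM, so the month 12 CCl4 median lay within the month 0 and month 2 oil ranges. Sdsl, much lower, lay between 6.84 and 19.7 CPM (median 10.6) in CCl4 livers and between 6.68 and 8.84 (median 6.85) in oil livers, a log2 fold change of 0.71 (SE 0.20, edgeR adjusted p 0.00385). At month 2 every CCl4 liver was above every oil liver for Sds, 203 to 256 CPM (median 240) in CCl4 livers against 103 to 184 (median 164) in oil livers. That difference had no call (0.63, edgeR adjusted p 0.09), and Sdsl was at -0.02. In month 0 livers Sdsl was 10.9 to 27.6 CPM, against 6.84 to 19.7 in month 12 CCl4 livers. Of the Sds windows 20% occur in other genes, with Plbd2 sharing the most. Exons of Plbd2 and Gm15690 overlap Sds on the other strand, and no source used here says whether counting used strand.

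**Figure D3:**
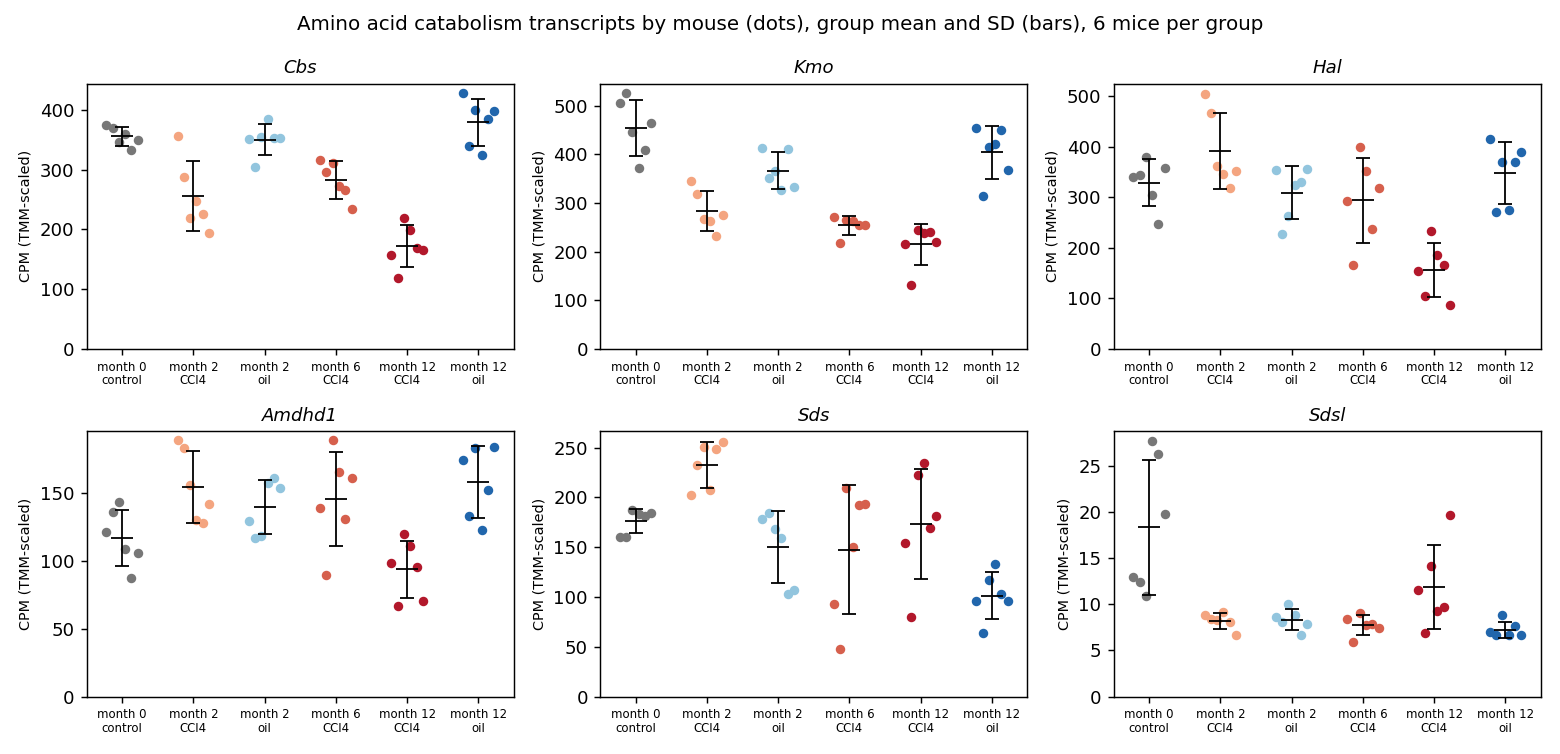
CPM of Cbs, Kmo, Hal, Amdhd1, Sds and Sdsl in each mouse (dots) with group mean and SD (bars), 6 mice a group. Cbs and Kmo are lower in CCl4 livers of each time, Hal and Amdhd1 of month 12 CCl4 livers lie below every month 12 oil liver, and Sds and Sdsl of month 12 CCl4 livers reach above the month 12 oil range.

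Among the branched-chain genes 6 of 7 fell at month 12, at a median log2 fold change of -0.59, and none was called at month 2 or 6. Hibadh, the mitochondrial dehydrogenase late in valine breakdown, lay between 46.2 and 146 CPM (median 111) in month 12 CCl4 livers and between 179 and 237 (median 215) in oil livers (-1.07, SE 0.18, edgeR adjusted p 8.09e-06). Ivd, the isovaleryl-CoA dehydrogenase of the leucine route, lay between 62.4 and 99.9 CPM (median 75.9) in CCl4 livers and between 126 and 163 (median 153) in oil livers (-0.91, SE 0.14). Pcca, the alpha subunit of propionyl-CoA carboxylase, lay between 21.5 and 42.9 CPM (median 38.8) in CCl4 livers and between 45.0 and 62.5 (median 52.6) in oil livers (-0.60, SE 0.14). None of the 3 overlapped. The 2 subunits of the rate-limiting dehydrogenase, Bckdha and Bckdhb, were at -0.59 and -0.50, and Mccc1, the alpha subunit of methylcrotonyl-CoA carboxylase, at -0.45. Hibch, which acts just before Hibadh, was at 0.14 with a 95% interval from -0.14 to 0.41 and no call. With library totals alone Bckdhb was at 0.05, Mccc1 at 0.09 and Hibch at 0.69, the last called higher.

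The 4 enzymes of histidine breakdown fell at month 12 (median -0.70), after values above 0 at month 2 that were not called. Hal, which removes ammonia from histidine (chromosome 10, 93488768 to 93519304), lay between 87.9 and 233 CPM (median 161) in month 12 CCl4 livers and between 271 and 416 (median 371) in oil livers. At month 2 it lay between 319 and 505 CPM (median 357) in CCl4 livers and between 227 and 356 (median 328) in oil livers. The log2 fold changes were -1.17 (SE 0.20, edgeR adjusted p 8.91e-06) at month 12 and 0.34 (adjusted p 0.28) at month 2, and their difference of -1.51 (SE 0.27, adjusted p 0.000145) was the largest in size among the 44. Amdhd1, the imidazolonepropionase of the third step, lies 4033 bases from Hal with no coding gene between. It was 67.2 to 120 CPM (median 97.1) in month 12 CCl4 livers and 123 to 184 (median 163) in oil livers (-0.76). Ftcd, which passes the formimino group to folate, was 135 to 231 CPM (median 196) in CCl4 livers and 248 to 339 (median 315) in oil livers (-0.64). Uroc1, the urocanase, was at -0.47. Under library totals alone Uroc1 was at 0.07. All 4 were called in the interaction test, with values of -0.90 for Amdhd1, -0.81 for Uroc1 and -0.77 for Ftcd. At month 2 they were 0.13 to 0.34, none called.

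The 4 genes of glutamine, proline and lysine breakdown fell as well, at a median of -0.97. Prodh, which oxidises proline, lay between 28.5 and 110 CPM (median 71.7) in month 12 CCl4 livers and between 137 and 216 (median 158) in oil livers (-1.19, SE 0.26, edgeR adjusted p 0.000363). Aldh4a1, the next enzyme on that route, lay between 90.7 and 195 CPM (median 151) in CCl4 livers and between 242 and 316 (median 267) in oil livers (-0.91, SE 0.16). Exons of Aldh4a1 overlap Gm21969 on the same strand. Of its windows 29.5% occur in other genes, with Gm21969 sharing the most. Aass, which channels lysine into saccharopine and on to its semialdehyde, lay between 95.9 and 250 CPM (median 188) in CCl4 livers and between 313 and 395 (median 364) in oil livers (-1.02, SE 0.17). Gls2, the liver-type glutaminase that supplies ammonia to the cycle, was at -0.81 at month 12 and at 0.43 (edgeR adjusted p 0.243) at month 2. The interaction was called for Gls2 (-1.24), Prodh (-1.14), Aass (-0.99) and Aldh4a1 (-0.84), and that of Prodh was lost without month 12 CCl4 mouse 2.

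**Figure D4:**
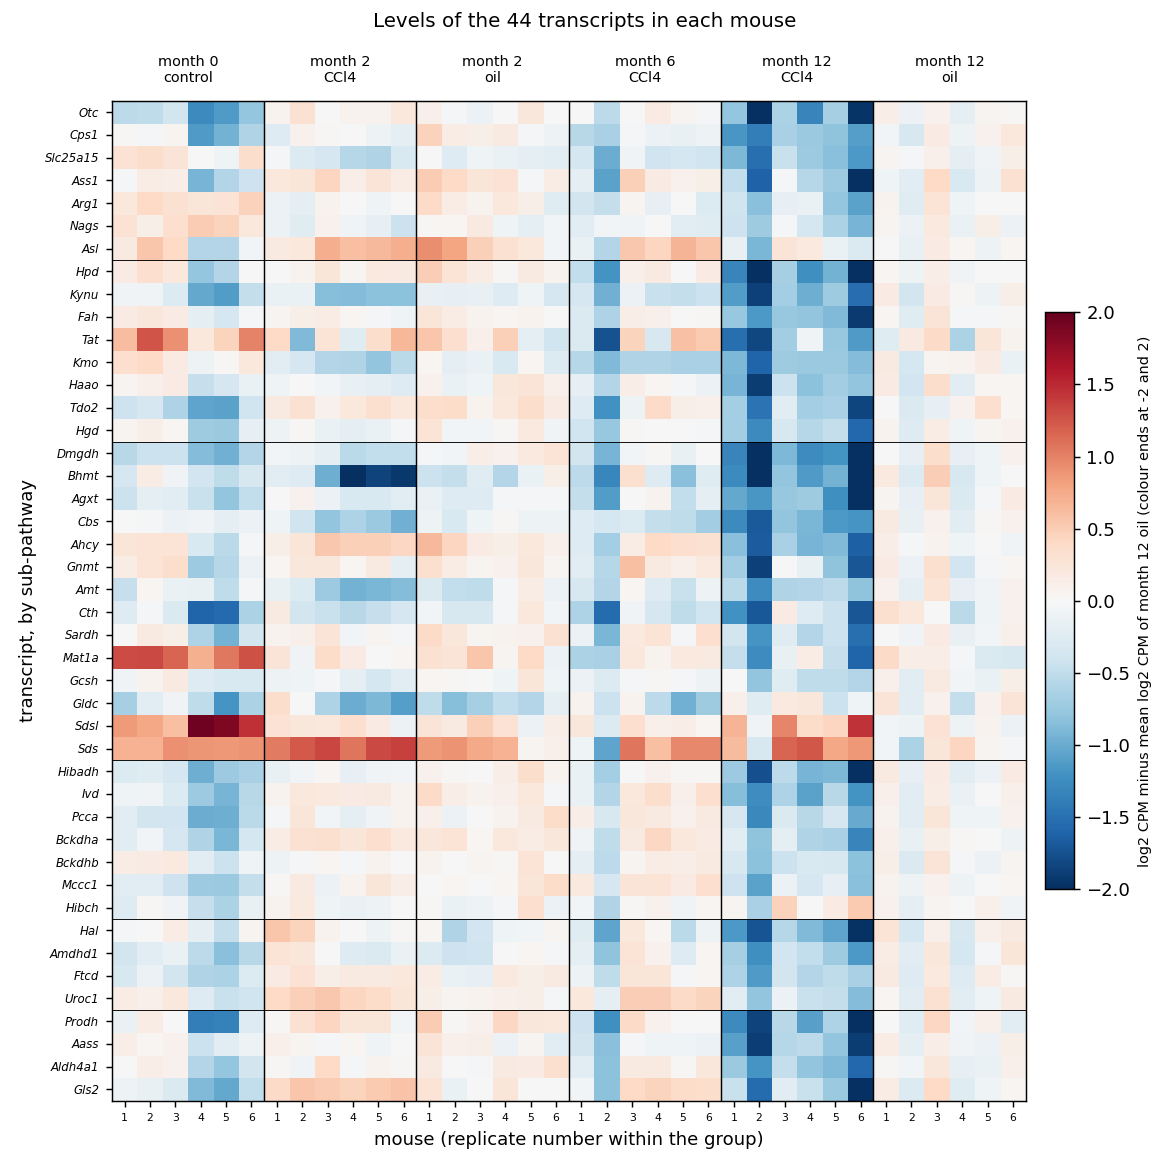
Log2 CPM of the 44 genes (rows, by sub-pathway) in each of the 36 mice (columns), minus the mean log2 CPM of month 12 oil livers; blue is lower, red is higher, and colours end at -2 and 2. Month 12 CCl4 mice 2 and 6 and month 6 CCl4 mouse 2 are the bluest columns of their groups.

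Month 12 CCl4 mice differed widely from one another. The median coefficient of variation over the 44 genes was 28% in month 12 CCl4 livers and 13.1% in month 12 oil livers. It was 10.1% in month 2 CCl4 livers and 10.9% in month 2 oil livers. Month 6 CCl4 livers had 19.7% and month 0 control livers 19.9%. Relative to the month 12 oil mean, the median log2 level of the 44 was -0.70, -1.29, -0.41, -0.59, -0.68 and -1.26 in CCl4 mice 1 to 6, and between -0.20 and 0.17 in the oil mice. Mouse 2 was the lowest of the 6 for 23 genes and mouse 6 for 20, with mouse 5 lowest for Gldc. Mouse 3 was the highest for 31. Mice 2 and 6 were not low in plasma protein transcripts: their sums of 130417 and 126444 CPM were the 2 highest of the group. In some other measures these 2 mice also lay together. Macrophage markers summed to 244 and 229 CPM and stellate cell markers to 689 and 687 CPM, the 2 lowest of the group for each. Neutrophil markers summed to 39.8 and 52.7 CPM, the 2 highest. In pericentral markers and mitochondrial transcripts they lay at opposite ends of the group. Mouse 2 had the highest sum of pericentral markers, 3425 CPM, and mouse 6 the lowest, 578 CPM, with the highest sum of cholangiocyte markers, 1100 CPM. Mitochondrial transcripts took 2.72% of counts in mouse 2 and 6.89% in mouse 6, the extremes of the CCl4 group, and 3.35% to 4.9% in the oil livers. With both mice left out, 31 of the 44 were still called lower and 2 higher, at a median of -0.54. The 8 that lost their call were Ass1, Cth, Gnmt, Mat1a, Mccc1, Sardh, Tat and Uroc1.

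Marker lists were also counted in the month 12 comparison, where 49.1% of all tested genes were called, 25.9% higher and 23.2% lower. Several of the lists below, the stellate cell, cholangiocyte and erythroid ones among them, had a smaller share called. The 10 plasma protein genes were called lower for 6 and higher for none, at a median of -0.54, and their summed level was 85859 to 130417 CPM in CCl4 livers and 88689 to 140041 in oil livers. Alb itself was at 0.24 with no call. Of 12 pericentral genes 10 were lower, with sums of 578 to 3425 CPM in CCl4 livers and 6757 to 8129 in oil livers. Of 8 periportal genes outside the 44, most went up: 5 were higher and 3 lower, Cyp2f2 at -1.05 being among those 3. Their sums of 2186 to 4070 CPM in CCl4 livers and 3141 to 4509 in oil livers overlapped. Of 9 tested cholangiocyte markers 4 were higher and none lower (220 to 1100 CPM in CCl4 livers, 46.2 to 101 in oil livers), and Krt19 was at -0.37 with no call. Of 11 macrophage markers 7 were higher and 1 lower (229 to 580 CPM in CCl4 livers, 294 to 360 in oil livers). Of 10 stellate cell genes 2 were higher and 2 lower, of 8 neutrophil genes 1 was higher, of 9 T and B cell genes 4 were higher, of 9 endothelial genes 5 were higher and 2 lower, and of 7 erythroid genes 2 were higher and 1 lower. Of 5 tested intestinal genes 2 were higher and 1 lower. None of 10 pancreatic acinar genes was called, though their sums were 39.4 to 4208 CPM in CCl4 livers and 113 to 38499 in oil livers, with the 3 highest in oil mice 4, 5 and 6. The part of these cell types in the fall of the 44 was not tested.

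As a share of raw counts, with no scaling, the 44 genes made up 1.43% to 2.98% of month 12 CCl4 libraries and 2.25% to 3.38% of month 12 oil libraries, so the groups overlapped on this measure. The plasma protein genes took 11.1% to 16.9% of CCl4 libraries and 8.53% to 12.7% of oil libraries. Transcripts of the major urinary protein (Mup) genes, which male mouse livers make in great amounts, took 0.0414% to 1.24% of CCl4 libraries and 10.5% to 20.7% of oil libraries. When library totals were counted without the Mup genes, 24 of the 44 were called lower and 3 higher, at a median of -0.50 beside 0.31 over all tested genes.

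**Figure D5:**
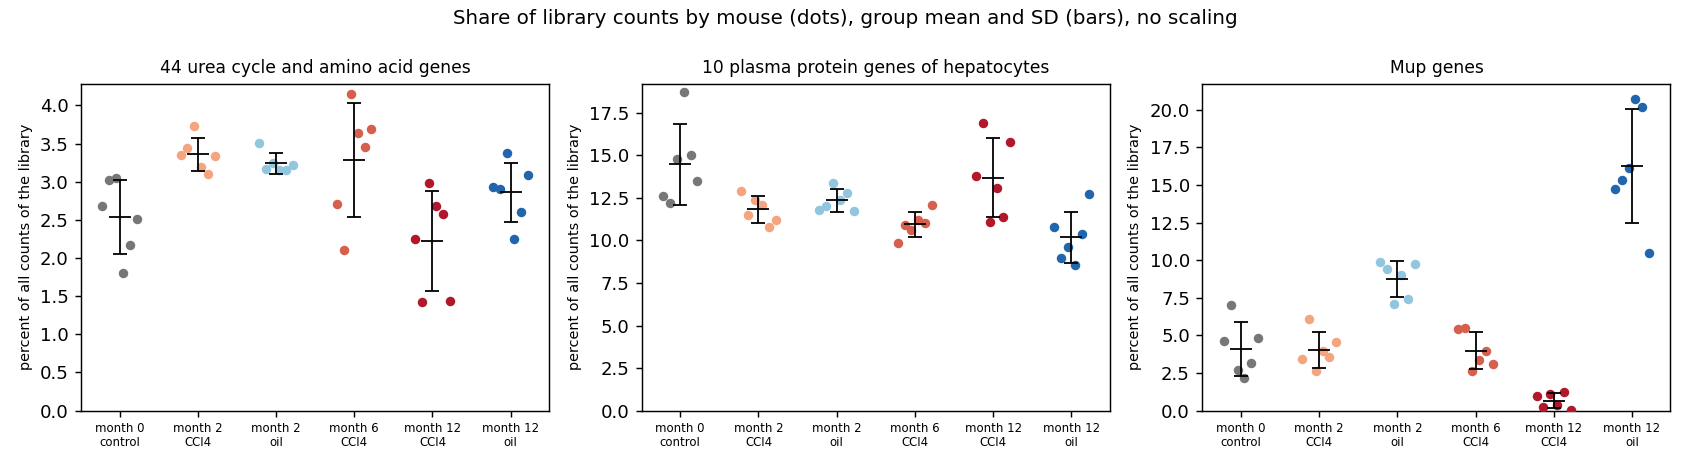
Percent of all counts of a library taken by the 44 genes, by 10 plasma protein genes and by the Mup genes, for each mouse (dots) with group mean and SD (bars), 6 mice a group. The Mup share of month 12 CCl4 livers is at most 1.24%, below every oil liver, while the shares of the 44 genes overlap between those groups.

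Related genes of the same pathways, from a list assembled by function, moved mostly the same way at month 12: 39 of 67 tested were lower and 7 higher, at a median of -0.45. These are 58.2% lower and 10.4% higher, beside 23.2% lower and 25.9% higher over all tested genes, which is also the background of each list below. The branched-chain list had 14 of 16 lower and none higher. Acadsb, the dehydrogenase of the isoleucine route, lay between 47.4 and 98.9 CPM (median 77.8) in month 12 CCl4 livers and between 180 and 215 (median 201) in oil livers (-1.38, SE 0.13, edgeR adjusted p 2e-10). Partner subunits of 2 of the 44 were lower too: Pccb at -1.27 beside Pcca at -0.60, and Mccc2 at -0.88 beside Mccc1 at -0.45. Acad8 of the valine route was at -0.88. In the aromatic list 6 of 9 were lower and none higher. They included Gstz1, which acts between Hgd and Fah (-1.15), Qdpr, which recycles tetrahydrobiopterin (-1.03), and Aadat of the kynurenine route (-1.61).

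Around the urea cycle 5 of 10 related genes were lower and 1 higher. Oat, the pericentral ornithine aminotransferase, was already low at month 2, 162 to 329 CPM (median 262) in CCl4 livers and 1030 to 1733 (median 1297) in oil livers, a log2 fold change of -2.34 (SE 0.36, edgeR adjusted p 5.29e-05). Pericentral markers summed to 3779 to 5656 CPM in month 2 CCl4 livers and to 7618 to 9927 in month 2 oil livers. Oat, Glul and Rhbg are also in that list. At month 2 Glul was at -0.82 with no call (edgeR adjusted p 0.0811), and Rhbg was called higher. At month 12 Oat was 33.8 to 479 CPM (median 203) in CCl4 livers and 885 to 1094 (median 966) in oil livers (-2.21). Slc25a13, the aspartate-glutamate carrier, was at -0.75 and Glul, the glutamine synthetase of pericentral cells, at -0.94 at month 12. Arg2, the second arginase, was called higher at month 12 (3.37), but its CPM were 0.686 to 26.5 (median 1.39) in CCl4 livers and 0.36 to 0.858 (median 0.545) in oil livers. Without CCl4 mouse 2 the Arg2 value was 1.67 with an edgeR adjusted p of 0.117. At month 2 its call (2.88) turned to -0.41 without CCl4 mouse 6. Among other related genes called at month 2, Rhbg of the pericentral list (1.20, without overlap) was higher and Hsd17b10 (-0.44) lower. Both were named after their values were seen.

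Some genes that make amino acids rather than break them down were called higher at month 12. In the glycine, serine and methyl list, where 9 of 22 related genes were lower and 3 higher, Psat1, the aminotransferase of serine synthesis, lay between 4.15 and 36.5 CPM (median 6.36) in CCl4 livers and between 0.68 and 3.16 (median 1.55) in oil livers, without overlap (3.25, SE 0.54, edgeR adjusted p 6.83e-06). Over single removals its value ran from 2.80 to 3.54. The other higher genes of that list, named after their values were seen, were Psph of the same route (0.77) and Mat2a, the S-adenosylmethionine synthetase of most other tissues (0.18). Mat2a lost its call in 5 of 12 single removals (CCl4 mouse 2, oil mice 1, 4, 5 and 6), with values from 0.14 to 0.24. Phgdh, the first enzyme of serine synthesis, was at 0.95 with no call (edgeR adjusted p 0.213). Nnmt (-1.86), Bhmt2 (-0.77) and Dld (-0.61) were among the lower ones.

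In the glutamine, proline and lysine list 5 of 10 related genes were lower and 3 higher. Aldh18a1 (1.15), an enzyme of proline synthesis named after its values were seen, was among the higher ones. Gcdh of lysine breakdown (-1.01), Prodh2 (-0.67) and Hoga1 (-0.53) were lower, and Hoga1 was at 0.01 under library totals alone.

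Of 19 genes for regulators of these pathways, 9 were lower and 1 higher at month 12, at a median of -0.38. The 52.6% called is near the 49.1% called over all tested genes, with 47.4% of the regulators lower beside 23.2% of all tested genes. Nr3c1, the glucocorticoid receptor, was at -0.45 (SE 0.07, edgeR adjusted p 4.48e-06), and Gcgr, the glucagon receptor, was also at -0.45. Among transcription factors Foxa1 was at -1.27, Cebpa at -0.65, Nr1h4 at -0.61, Prox1 at -0.60 and Creb3l3 at -0.51. Prox1 lost its call without CCl4 mouse 4, at -0.51, or without oil mouse 4, at -0.48, and Nr1h4 without CCl4 mice 2 and 6, at -0.45 and an edgeR adjusted p of 0.0514. Onecut1 (-1.64) and Klf15 (-0.63) had edgeR adjusted p-values of 0.0363 and 0.0421 and lost their calls in 8 and 7 of 12 single removals. Cebpd was higher (0.65), and lost its call without CCl4 mouse 4, at 0.51, or without oil mouse 5, at 0.53. Hnf4a, which many liver genes depend on, was 299 to 408 CPM (median 337) in CCl4 livers and 326 to 433 (median 383) in oil livers, at -0.16 with no call. With library totals alone Nr3c1 was at 0.10, Gcgr at 0.11, Creb3l3 at 0.04, Prox1 and Nr1h4 each at -0.05, and Cebpa at -0.08, none of them called.

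Oil treatment for 12 rather than 2 months was not accompanied by a call in any of the 44 genes. The median log2 fold change was -0.08, by edgeR 3 of the 44 had an unadjusted p under 0.05, and DESeq2 also called none. Among all tested genes 11 were called, 0.0717%, with 0.0391% higher and 0.0326% lower. No member was free of overlap between the groups, while 0.528% of all tested genes lay wholly higher and 0.841% wholly lower.

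Between month 2 oil livers and month 0 control livers, 10 of the 44 genes were higher and 5 lower, with a median of 0.25. Over all tested genes 31.3% were called, 14.8% higher and 16.4% lower. Of the 44, 8 lay wholly higher, beside 6.98% of all tested genes, and 2 wholly lower, beside 6.92%. Marker sums moved apart between these groups too. Neutrophil markers summed to 11.1 to 19.5 CPM in month 2 oil livers and 47.9 to 119 in month 0 livers, and plasma protein genes to 118448 to 141095 CPM in month 2 oil livers and 157753 to 246508 in month 0 livers. Pericentral markers summed to 7618 to 9927 CPM in month 2 oil livers and 3897 to 7522 in month 0 livers. Month 0 mice 4 and 5, low for the members, had cholangiocyte sums of 275 and 419 CPM, while month 2 oil livers had 40 to 89.9 CPM. The part of these measures in the result was not tested. Age, the length of oil treatment and the time of sampling cannot be told apart here. Among the higher genes the branched-chain list was the best represented, with 5 of its 7 members. Pcca lay between 48.8 and 68.1 CPM (median 56.1) in month 2 oil livers and between 26.4 and 45.6 (median 38.3) in month 0 livers (0.66, edgeR adjusted p 0.000585). Mccc1 was 34.4 to 44.1 CPM (median 35.1) in month 2 oil livers and 20.4 to 29.5 (median 25.1) in month 0 livers (0.57). Bckdha was 152 to 178 CPM (median 171) in month 2 oil livers and 77.8 to 142 (median 116) in month 0 livers (0.58). The groups of these 3 did not overlap, nor did those of Ivd, 143 to 192 CPM (median 160) in month 2 oil livers and 77.4 to 140 (median 111) in month 0 livers (0.56), or Hibadh, 208 to 267 CPM (median 222) in month 2 oil livers and 107 to 178 (median 151) in month 0 livers (0.62). Related branched-chain genes showed 11 of 16 higher and none lower.

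The other higher genes came from 4 lists. Tdo2 was 1963 to 2418 CPM (median 2266) in month 2 oil livers and 886 to 1475 (median 1312) in month 0 livers (0.88, edgeR adjusted p 0.00146). Otc was 524 to 667 CPM (median 566) in month 2 oil livers and 235 to 439 (median 365) in month 0 livers (0.76), and Dmgdh was 365 to 460 (median 409) in month 2 oil livers and 195 to 283 (median 256) in month 0 livers (0.72). None of these overlapped, whereas Cps1 and Ftcd did. Cps1 was 5852 to 8674 CPM (median 6922) in month 2 oil livers and 2882 to 6519 (median 5147) in month 0 livers (0.51), and lost its call without month 2 oil mouse 1 or without month 0 mouse 4, 5 or 6. Ftcd was 266 to 342 CPM (median 325) in month 2 oil livers and 191 to 276 (median 234) in month 0 livers (0.44).

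Of the 5 lower genes, Sdsl was 6.66 to 10.0 CPM (median 8.38) in month 2 oil livers and 10.9 to 27.6 (median 16.4) in month 0 livers (-1.13, edgeR adjusted p 6.9e-05). Mat1a was 2050 to 3270 CPM (median 2701) in month 2 oil livers and 3652 to 5539 (median 5170) in month 0 livers (-0.89, edgeR adjusted p 0.0012). Both were free of overlap. Smaller differences with overlap were found for 3 genes. Nags was 44.3 to 57.1 CPM (median 50.3) in month 2 oil livers and 55.2 to 71.8 (median 62.7) in month 0 livers (-0.33). Slc25a15 was 272 to 325 CPM (median 290) in month 2 oil livers and 305 to 415 (median 394) in month 0 livers (-0.35). Kmo was 326 to 412 CPM (median 358) in month 2 oil livers and 372 to 526 (median 456) in month 0 livers (-0.31). Slc25a15 and Kmo each lost the call in 8 of 12 single removals. The scaling bears on this comparison as well: with library totals alone 27 of the 44 were higher and 2 lower, beside a median of 0.23 over all tested genes.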

How the data were processed

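Whole-liver total RNA was depleted of ribosomal RNA and sequenced as paired, stranded TruSeq libraries, per the labels' protocols. The deposited table holds raw gene counts made by the authors for 36 libraries. Reads were mapped with BioJupies, per the labels' protocols, and the submitters' processing notes name the build mm10, edgeR version 3.30.3 and limma version 3.44.3. The annotation behind the counts and the use of strand are not given in the sources used here. All 36 columns were used and 0 left out.

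From the counts, edgeR 4.0.16 (R 4.3.3) fitted 1 quasi-likelihood model with 6 groups after its filterByExpr filter and TMM scaling. Calls needed an adjusted p (Benjamini-Hochberg, over 15338 tested genes) under 0.05. SE is the size of the log2 fold change over the square root of F. There were 7 comparisons, and the script was tested on simulated data. Alternatives were other scalings and filters, DESeq2 1.42.0, limma-voom (limma 3.58.1), a block for replicate number, the compared groups alone, other oil groups for month 6, and single removals. Refits without 4 libraries, without month 12 CCl4 mice 2 and 6, and with totals without Mup genes were chosen after seeing the data. Of 90 replicate pairs, none was a copy within sampling noise (lowest chi-square per degree of freedom 22.9).

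The members and lists were chosen with earlier results of these data known. Named with levels were Cps1, Otc, Ass1, Asl and Arg1, the 3 called genes of each sub-pathway with the largest month 12 change, and those called at month 2 or 6, higher at month 12, or between oil groups and month 0. Of related genes, up to 4 called genes per list with the smallest month 12 p were named, and any regulator. Kyat1 and Kyat3 were not analysed here. Some related genes that the rule names are not reported here. Gene positions come from GENCODE vM21 (mm10) and start-site sequences from RefSeq (GRCm38.p6). Shared sequence was the percent of 60-base windows of a gene found in another gene. Intervals are at 95%.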

Additional observations from a re-analysis of the deposited data

Results flagged for a closer look

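In 16 of 264 gene-by-group sets of 6 mice, 1 mouse was separated from the other 5 by a gap wider than Dixon's 95% limit for its range, and chance gives about 1 in 20. Of these, 8 were the low values of month 6 CCl4 mouse 2: 395 CPM for Otc, 164 for Slc25a15, 217 for Kmo, 233 for Sardh, 132 for Hibadh, 52.6 for Hibch, 27 for Mccc1 and 42.3 for Pcca. Month 12 CCl4 mouse 6 was low for Fah at 112 CPM and for Agxt at 28.3 CPM, and mouse 2 for Kmo at 132 CPM and Haao at 119 CPM. High values were found in month 2 CCl4 mouse 1 for Cth, 628 CPM, and mouse 3 for Aldh4a1, 357 CPM. Month 2 oil mouse 5 was high for Bckdhb, 53.8 CPM, and for Hibch, 100 CPM.

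The CCl4 effect differed between month 12 and month 2 for 24 genes by the interaction test, and each difference in log2 fold change was below 0. In the urea cycle it was -0.75 for Cps1, -1.25 for Otc and -0.69 for Slc25a15. For aromatic amino acids it was -1.24 for Hpd, -0.94 for Fah, -0.81 for Tdo2, -0.54 for Kmo, -0.72 for Kynu and -0.69 for Haao. In the glycine, serine and methyl group list it was -0.69 for Cbs, -1.04 for Dmgdh, -1.15 for Agxt and -1.14 for Ahcy. Among branched-chain genes it was -0.66 for Bckdha, -0.89 for Hibadh and -0.90 for Ivd. For histidine it was -1.51 for Hal, -0.81 for Uroc1, -0.90 for Amdhd1 and -0.77 for Ftcd, and in the last list -1.24 for Gls2, -1.14 for Prodh, -0.84 for Aldh4a1 and -0.99 for Aass.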

How the results depend on the processing

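The month 12 count of 39 lower genes was 35 to 39 under RLE scaling, either other filter, the replicate block, DESeq2, limma-voom, the compared groups alone and without the 4 libraries, with 2 higher each time. Library totals alone gave 19 lower and 4 higher, and totals without Mup genes 24 lower. For all genes, totals alone split calls into 10331 higher and 592 lower at month 12 (3975 and 3561 with TMM), 8884 and 177 at month 6 (1182 and 564), and 3160 and 179 at month 2 (1073 and 518). The cause of these shifts was not tested.

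At month 2, 3339 genes were called with totals alone and 884 without the 4 libraries. Members higher were 5 with totals alone, 3 with the compared groups and 2 without Mup genes, and members lower 0, 1 without a filter and 1 without Mup genes. At month 6, 9061 genes were called with totals alone, 1115 against month 12 oil alone and 3631 without Mup genes. Members higher were 10 and 1 under the 2 other totals, and members lower 1 with either total, 4 with the compared groups and 1 against month 2 oil alone. In the interaction, totals alone gave 5553 genes with 13 members lower and 2 higher, and DESeq2, the compared groups and totals without Mup genes gave 1 higher each. For month 12 oil against month 2 oil, genes called were 183 with totals alone, 26 with the 1 CPM filter, 19 with the replicate block, 140 with DESeq2, 17 with limma-voom, 190 with the compared groups, 6 without the 4 libraries and 28 without Mup genes. For month 2 oil against month 0, 7350 genes were called without Mup genes. Members higher were 27 with totals alone and 31 without Mup genes, and members lower 2 under both, and 3 without a filter, with limma-voom or without the 4 libraries. For CCl4 month 12 against month 6, totals alone gave 3 higher, totals without Mup genes 2 higher, and leaving out mice 2 and 6 gave 23 lower.

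Over single removals, genes called ran from 7132 to 7831 at month 12 (members lower 37 to 39, higher 2), 1102 to 1753 at month 2 (lower 1 to 4, higher 0), 1049 to 2376 at month 6 (lower 1 to 3, higher 0 to 1), 2936 to 3396 in the interaction (lower 21 to 28, higher 0 to 1), 4 to 28 between oil groups (members 0), 4032 to 4788 for month 2 oil against month 0 (higher 9 to 11, lower 3 to 5), and 5463 to 6271 for CCl4 month 12 against month 6 (lower 33 to 38, higher 0 to 2).

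Signs turned at month 12 with totals alone for Arg1 (0.02), Asl (0.42), Bckdhb (0.05), Gcsh (0.12), Gldc (0.50), Mat1a (0.00), Mccc1 (0.09), Nags (0.05), Uroc1 (0.07), Creb3l3 (0.04), Gcgr (0.11), Hoga1 (0.01) and Nr3c1 (0.10). Asl was 0.18 and Gldc 0.26 without Mup genes, and 0.08 and 0.04 without mice 2 and 6. Each was 0.02 without CCl4 mouse 2, and Gldc was 0.05 without CCl4 mouse 5 and 0.01 without oil mouse 6. Over single removals Asl ran from -0.19 to 0.02, Gldc from -0.15 to 0.05 and Arg2 at month 2 from -0.41 to 3.64. Arg2 at month 2 was -0.41 without CCl4 mouse 6 and -0.04 without the 4 libraries.

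No pairing by replicate number was seen: 21 of 90 same-number pairs correlated above 0.1 (-0.46 to 0.47) and 3 of 36 libraries were closest to their own number. These correlations over all genes, with group means removed, can miss an effect on part of the genes, so pairing was not excluded. With the replicate block, members called at month 12 were 39 lower and 2 higher. Depth limits the genes of low level, such as Arg2, and Psat1 in oil livers.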
